A study of Danio rerio with 6 samples.

Results

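The genes described here are those of cholesterol and isoprenoid synthesis together with the genes that sense, take up and store sterols, plus a pair of fatty acid synthesis genes under the same control. They were chosen by gene name. Of 34 names, 33 had a row among the 19071 genes of the expression tables, and sqleb was not analysed here. All 33 enter the counts, and 2 of them are not described one by one. RNA was sequenced from pools of 50 zebrafish embryos at 3 dpf, with 3 libraries from P2RY11 mutants (p2ry11 -/-, a knockout in the labels) and 3 from their WT siblings. Both groups came from crosses between heterozygous fish and grew in E3 medium with methylene blue. The mutation is a frameshift deletion in exon 2 kept in a single founder line, so a difference belongs to this line. The values are FPKM, fragments scaled to transcript length and to the mapped fragments of the library, which can be compared between genes as levels per length.

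Cells build cholesterol from acetyl-CoA. The mevalonate pathway makes the isoprenoid unit, prenyl transferases join units into farnesyl and geranylgeranyl diphosphate, and from squalene onward the carbon chain is folded and trimmed into sterol. The farnesyl and geranylgeranyl groups also anchor small GTPases to membranes and feed the synthesis of ubiquinone and dolichol. Sterol supply is sensed in the endoplasmic reticulum, where Scap carries the SREBP transcription factors to the Golgi when sterol is low and the Insig proteins hold the complex back when sterol is high. In mammals SREBP-2 switches on nearly the whole synthesis pathway and the LDL receptor, while SREBP-1 acts more on fatty acid genes. A zebrafish larva also draws cholesterol from yolk, through the yolk syncytial layer.

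The targeted gene p2ry11 had FPKM of 0.707, 0.853 and 1.02 in the WT sibling libraries and was at a listed value of 0 in each of the 3 mutant libraries (exact permutation test in both directions, p = 0.1, the smallest that 3 libraries against 3 allow). WT sibling replicate 3 stood apart, with a median FPKM of 3.81 over all genes against 4.52 and 4.84 in the other WT siblings and 5.10 to 5.39 in the mutants. It was the lowest of the 6 libraries in 47.1% of all genes tested. Over all 18432 tested genes the median log2 difference was 0.16, and 0.012 once libraries were scaled by the median of ratios, so the differences below sit on a shift shared with most genes. Nothing states that pools within a group were separate clutches, and the p-values then measure only the spread between these libraries. Read depth is unknown. Markers of liver, yolk syncytial layer, neurons, glia, red cells, muscle, heart and leukocytes were above 0 in every library, as in whole larvae. The red cell markers differed most, with 8 of 10 lower in mutants at an adjusted p under 0.05 in limma (3.98% of all genes). Their summed FPKM were 5736 to 8207 in WT siblings and 2920 to 2961 in mutants. Sums of liver, yolk syncytial layer and intestine, neuron, muscle, heart and leukocyte markers were also lower in every mutant library than in any WT sibling library. The neuron sums only just separated, with 1391.4 in the lowest WT sibling and 1390.4 in the highest mutant. Single markers went both ways. Log2 differences were above 0 for 4 of 12 liver, 7 of 14 yolk syncytial layer and intestine, and 6 of 12 neuron markers. They were above 0 for 4 of 12 muscle, 4 of 6 heart and 5 of 9 leukocyte markers (68.9% of all genes tested). The part of these markers in the results below was not tested.

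Of the 33 genes, 31 had a mean FPKM of at least 0.5 and were tested on log2(FPKM + 1) with limma, in a fit over all 18432 such genes. At an adjusted p under 0.05, 5 were higher in P2RY11 mutants: insig2, acat2, pmvk, sc5d and hmgcs1. They are 16.1% of the 31, where 8.23% of all genes tested were called higher. This share includes pmvk, which had a WT sibling mean of 0.482 FPKM and passed the filter only through its mutant level. With a filter at mean FPKM 1, 3 of 26 were called higher, where 7.54% of all genes were. None of the 31 was called lower, where 3.98% of all genes were, and at an unadjusted p under 0.05 the limma fit had 10 higher (32.3%, against 26.0% of all genes) and 1 lower (against 9.21% of all genes). Under the criteria of the study, a fold above 1.5 with an unadjusted p under 0.05, 5 were higher (insig2, acat2, sc5d, fdps and ggps1) and 0 lower, against 9.51% and 3.28% of all genes. The 3 mutant values all exceeded the 3 WT sibling values in 10 of the 31 (32.3%, against 35.0% of all genes), and all lay below them in 1 (11.7% of all genes). The median log2 difference of the 31 was 0.20 beside 0.16 for all genes, and it was 0.064 beside 0.012 after median-of-ratios scaling. By median and by separation of the groups these genes were thus close to all genes tested. All 5 calls were lost after median-of-ratios scaling (adjusted p 0.0577 to 0.111), with 0 of the 31 called higher and 1 lower. That scaling moved the calls over all genes from 1517 higher and 733 lower to 666 higher (3.61%) and 1046 lower. The 5 calls were also lost without WT sibling replicate 1 (0.0636 to 0.119) or without mutant replicate 1 (0.0704 to 0.165), 2 (0.0755 to 0.129) or 3 (0.0906 to 0.160). In those fits between 117 and 215 genes of the whole table were higher. Without WT sibling replicate 3 all 5 calls stayed (0.00195 to 0.0249), in a fit that called 3712 genes higher and 1495 lower. Without WT sibling replicate 2 the calls of hmgcs1 (0.0667) and pmvk (0.0519) were lost. Quantile normalization kept the calls of acat2 and insig2.

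On the FPKM scale the highest level was that of lbr, whose product is both a sterol reductase and a nuclear envelope receptor for lamin B, with a mean FPKM of 40.2 over the 6 libraries. The idi1 gene had a mean of 25.7, acat2 of 14.3 and fdps of 11.6. Ordered by mean level, 3 of 32 neighboring genes were further apart than the larger SD of the pair over the 6 libraries: lbr from idi1, idi1 from acat2, and mvda from hsd17b7. From insig2 at 7.24 to lss, the lowest at 0.466, the gaps between neighboring genes were otherwise within that spread. The SD over the 6 libraries includes the difference between the groups, and genes further apart in the order were not compared. Summed over the 33 genes, FPKM before median-of-ratios scaling were 171, 181 and 152 in WT siblings and 202, 197 and 187 in mutants, without overlap. Leaving out lbr and idi1 the sums were 106, 117 and 89.2 in WT siblings and 133, 128 and 123 in mutants. These sums carry the shift shared with most genes, and 35.0% of all genes tested separated in the same direction. Median-of-ratios scaling divides every mutant library by a larger factor than any WT sibling library. The separation of the sums can therefore not be assigned to these genes.

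**Figure D1:**
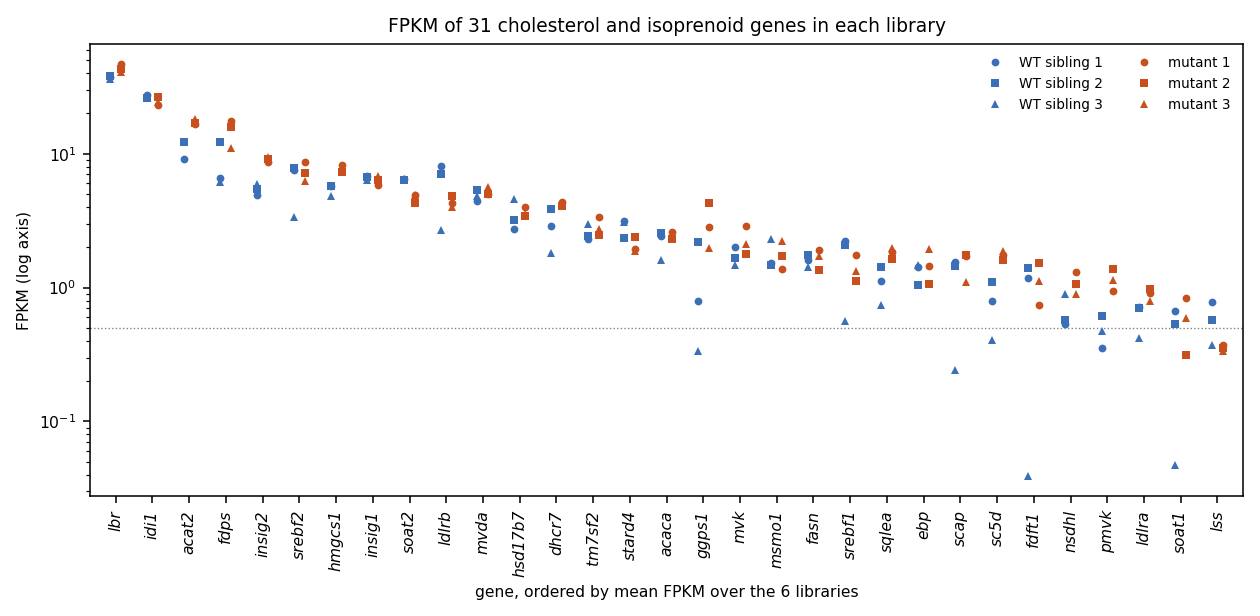
FPKM on a log axis of 31 of the 33 genes in each library, ordered by mean FPKM, with blue points for the WT siblings and orange points for the P2RY11 mutants (circle, square and triangle for replicates 1, 2 and 3); the dotted line is the mean FPKM of 0.5 needed for testing. The mutant points of acat2, insig2 and hmgcs1 lie above all WT sibling points, and WT sibling replicate 3 is far below the others in scap, fdft1 and soat1.

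In the mevalonate pathway 3 of 8 genes rose in P2RY11 mutants and the remaining 5 did not pass the test. Of all genes tested 8.23% were called higher, and these 3 calls were lost after median-of-ratios scaling. The first step joins acetyl-CoA molecules and is made by the thiolase Acat2. Its gene acat2 had FPKM of 9.10, 12.1 and 12.2 in WT siblings and 16.8, 17.1 and 18.3 in mutants. Every mutant library was higher, and the mutant values were close together. The log2 difference was 0.61 (SE 0.126, adjusted p = 0.0285), with group means 1.56-fold apart. The next enzyme, HMG-CoA synthase, is encoded by hmgcs1, with FPKM of 5.76, 5.75 and 4.83 in WT siblings and 8.17, 7.32 and 7.54 in mutants. These groups did not overlap either, and the log2 difference was 0.43 (SE 0.112, adjusted p = 0.0490). Phosphomevalonate kinase, encoded by pmvk, stood at 0.356, 0.617 and 0.472 FPKM in WT siblings and at 0.948, 1.37 and 1.14 in mutants. Its group means were 2.39-fold apart, and the log2 difference of 0.54 (SE 0.129, adjusted p = 0.0417) is smaller because the added 1 compresses low values. In WT siblings its mean of 0.482 FPKM lay under the filter, so it entered the test through its mutant level.

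Mevalonate kinase (mvk), the decarboxylase (mvda) and the isomerase (idi1) had log2 differences of 0.26, 0.084 and -0.12, and none passed the test. The interval for idi1 was -0.32 to 0.080.

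The prenyl transferase genes fdps and ggps1 had the most positive log2 differences among the 31 genes, and passed the study's criteria, but neither passed the adjusted threshold. Farnesyl diphosphate synthase, encoded by fdps, supplies both the sterol and the isoprenoid branch. Its FPKM were 6.58, 12.2 and 6.14 in WT siblings and 17.7, 15.9 and 11 in mutants. The values of WT sibling replicate 2 and mutant replicate 3 crossed, and the log2 difference was 0.80 (SE 0.268, adjusted p = 0.0863). Geranylgeranyl diphosphate synthase, encoded by ggps1, makes the longer prenyl group used on many small GTPases. It stood at 0.801, 2.19 and 0.337 FPKM in WT siblings and 2.81, 4.26 and 1.96 in mutants, again with a crossing of the same libraries. The log2 difference was 0.98 (SE 0.345, adjusted p = 0.0944). WT sibling replicates 1 and 3 were low and WT sibling replicate 2 was high in both genes. Without WT sibling replicate 2, the library that was high in both, both were called higher, with log2 differences of 1.08 for fdps (adjusted p = 0.0342) and 1.33 for ggps1 (adjusted p = 0.0393). Neither was called after median-of-ratios scaling (adjusted p 0.138 and 0.136), after quantile normalization (0.106 and 0.130) or without WT sibling replicate 3 (0.0831 and 0.0953). With a replicate block in the fit ggps1 was called (adjusted p = 0.0312) and fdps was not (0.0585).

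**Figure D2:**
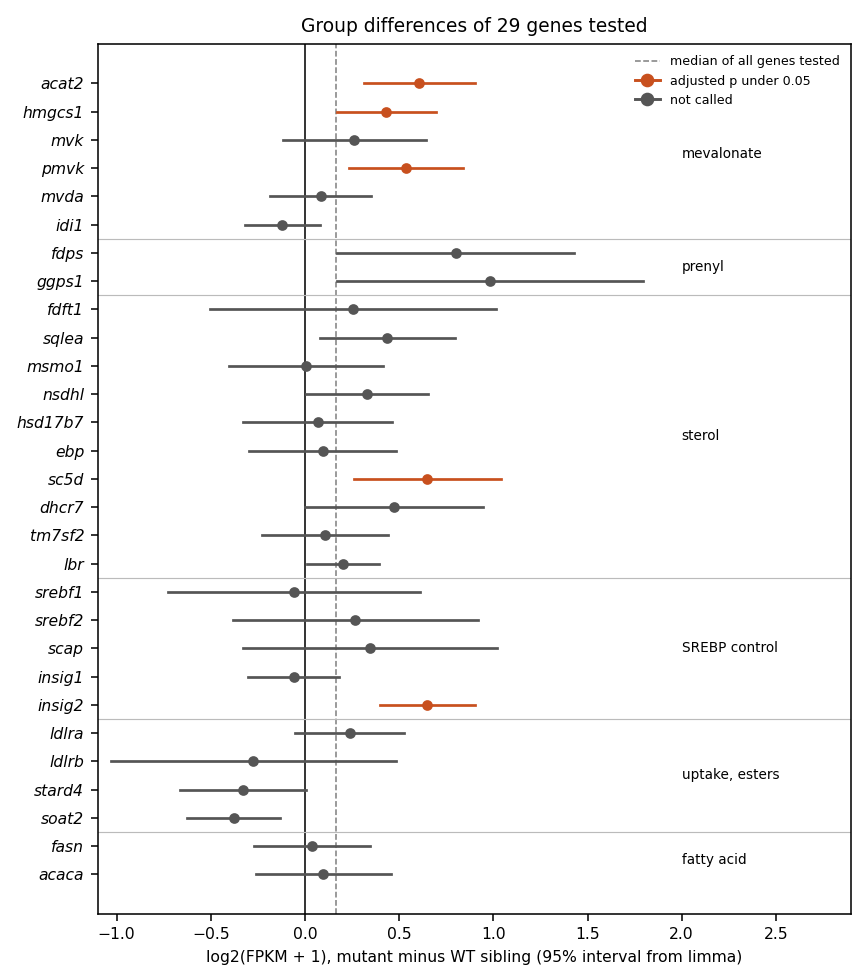
Log2 difference in log2(FPKM + 1), P2RY11 mutant minus WT sibling, of 29 of the 31 genes tested, in pathway order with 95% intervals from limma (n = 3 libraries per group). Orange marks the 5 genes at an adjusted p under 0.05, which are acat2, hmgcs1, pmvk, sc5d and insig2; the solid line is 0 and the dashed line the median of all genes tested, 0.16.

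From squalene to cholesterol, 1 of 10 tested genes rose and 0 fell (8.23% and 3.98% of all genes). At an unadjusted p under 0.05 in limma 4 were higher and 0 lower (26.0% and 9.21% of all genes). The gene that rose was sc5d, which encodes the desaturase acting shortly before the end of the pathway. It had FPKM of 0.790, 1.11 and 0.406 in WT siblings and 1.74, 1.61 and 1.86 in mutants. The groups were separate, with means 2.26-fold apart, and in log2 the difference was 0.65 (SE 0.166, adjusted p = 0.0477). This call was narrow. It was lost as TPM (0.0550), with median-of-ratios scaling (0.0645), with quantile normalization (0.0633) and with the replicate block (0.0752). It was also lost with a pseudocount of 0.1 and with a filter at mean FPKM 1. The gene of its partner reductase dhcr7, which completes cholesterol in the same arm, had a log2 difference of 0.47 (adjusted p = 0.142), with no overlap between the groups. Squalene epoxidase, which adds the first oxygen, is encoded by sqlea. Its FPKM were 1.12, 1.43 and 0.743 in WT siblings and 1.84, 1.64 and 1.98 in mutants, separate but not called (log2 difference 0.44, SE 0.152, adjusted p = 0.0935). The sterol dehydrogenase gene nsdhl had 0.538, 0.568 and 0.891 FPKM in WT siblings and 1.32, 1.06 and 0.897 in mutants. The groups only just separated, with a log2 difference of 0.33 (adjusted p = 0.137), or 0.42 and a call without WT sibling replicate 3 (adjusted p = 0.0420). That fit called 3712 genes higher over the whole table, against 1517 with all libraries.

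Of the reductases for the same double bond, lbr had FPKM of 37.5, 38.1 and 36.4 in WT siblings and 46.4, 42.6 and 40.5 in mutants. The log2 difference of 0.20 (adjusted p = 0.125) was close to that of all genes. The other reductase gene, tm7sf2, had a log2 difference of 0.11 with overlapping groups. The squalene synthase gene fdft1, which commits the pathway to sterols, stood at 1.2, 1.4 and 0.0392 FPKM in WT siblings and 0.739, 1.51 and 1.11 in mutants. Only WT sibling replicate 3 was low, and the log2 difference of 0.26 (adjusted p = 0.589) became -0.12 without it. The demethylase gene msmo1 and the genes hsd17b7 and ebp had log2 differences of 0.0049, 0.067 and 0.094, with overlapping groups. Their directions, and that of tm7sf2, turned below 0 with median-of-ratios scaling and likewise with quantile normalization. Lanosterol synthase, which closes the sterol rings, is encoded by lss and lay under the filter. It had FPKM of 0.784, 0.576 and 0.375 in WT siblings and 0.373, 0.354 and 0.334 in mutants. Every mutant library was lower, though WT sibling replicate 3 was almost at the mutant level, and with no filter the log2 difference was -0.21 (adjusted p = 0.245).

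Among the genes that sense sterol, insig2 rose in P2RY11 mutants and insig1 did not pass the test. Both Insig proteins retain Scap in the endoplasmic reticulum, and in mammals insig1 is itself a target of SREBP while insig2 is not. The insig2 gene had FPKM of 4.89, 5.44 and 5.93 in WT siblings and 8.66, 9.08 and 9.43 in mutants. The groups were well apart, with means 1.67-fold apart and 0.65 between them in log2 (SE 0.107, adjusted p = 0.0166). The insig1 gene had 6.78, 6.72 and 6.38 FPKM in WT siblings and 5.84, 6.40 and 6.76 in mutants. These values overlapped, and the log2 difference was -0.059 with an interval of -0.30 to 0.18 (0.035 after rescaling to TPM). In WT siblings insig2 was the lower of the pair in every library, and in mutants the higher. The ratio of insig2 to insig1 within a library, in which any scaling of that library cancels, was 0.720, 0.809 and 0.929 in WT siblings and 1.48, 1.42 and 1.4 in mutants.

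The SREBP genes and scap varied mostly through WT sibling replicate 3. The srebf2 gene had FPKM of 7.56, 7.78 and 3.39 in WT siblings and 8.71, 7.13 and 6.28 in mutants, and srebf1 had 2.22, 2.07 and 0.561 in WT siblings and 1.75, 1.12 and 1.34 in mutants. Their log2 differences were 0.27 (interval -0.38 to 0.92) and -0.060 (interval -0.73 to 0.61). Without WT sibling replicate 3 they were -0.060 (adjusted p = 0.748) and -0.40 (adjusted p = 0.0640). The srebf1 gene lay lower in all 3 mutant libraries than in WT sibling replicates 1 and 2, and leaving out replicate 3 with median-of-ratios scaling gave -0.49 (adjusted p = 0.0294), an alternative added after the values had been seen. The scap gene had 1.55, 1.44 and 0.243 FPKM in WT siblings and 1.72, 1.76 and 1.1 in mutants. Its log2 difference of 0.34 (adjusted p = 0.413) became 0.0078 without WT sibling replicate 3. In a RefSeq gene order of another assembly (GRCz12tu) srebf1, srebf2 and ldlra lie on the chromosome of p2ry11, with 0 of the 33 genes within 50 protein-coding genes of it on either side.

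**Figure D3:**
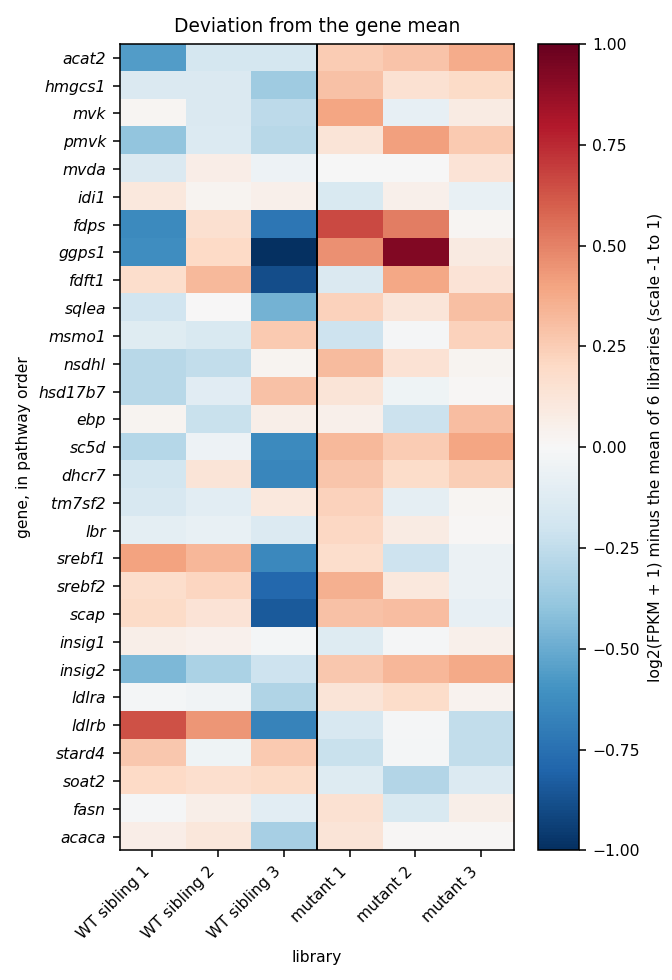
Deviation of log2(FPKM + 1) from the mean of the 6 libraries for 29 of the 31 genes tested, in pathway order; red is above and blue below the gene's mean, on a scale of -1 to 1 with values past it drawn at its ends, and the black line divides WT siblings from P2RY11 mutants. The acat2, pmvk, sc5d and insig2 rows are blue in all WT siblings and red in all mutants, while ggps1, fdft1, srebf1, srebf2, scap and ldlrb are dark blue in WT sibling replicate 3.

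Genes for uptake and storage of cholesterol did not pass the test, and 3 of the 4 tested had log2 differences below 0. Over all genes tested 68.9% lay above 0, and 51.4% after median-of-ratios scaling. Sterol esterification in liver and intestine is the work of Soat2. The soat2 gene had FPKM of 6.5, 6.33 and 6.46 in WT siblings and 4.95, 4.31 and 4.93 in mutants. It was the only tested gene of the 31 whose mutant values all lay under the WT sibling values, as in 11.7% of all genes. Its log2 difference was -0.38 (SE 0.105, adjusted p = 0.0583). It was called lower with median-of-ratios scaling (-0.54, adjusted p = 0.0284), with quantile normalization (-0.56, adjusted p = 0.0192) and without WT sibling replicate 3 (-0.37, adjusted p = 0.0267). Those fits called 1046, 1310 and 1495 genes lower over the whole table, against 733 in the main fit. The soat2 gene was not called as TPM (-0.31, adjusted p = 0.127), with the replicate block (adjusted p = 0.107) or with any other single library left out. Markers of yolk syncytial layer and intestine summed to between 8564 and 10603 FPKM in WT siblings and 6870 and 8021 in mutants. Of these 14 markers 2 were called higher and 2 lower (8.23% and 3.98% of all genes). Liver markers summed to between 2812 and 3524 in WT siblings and 2358 and 2661 in mutants. Of these 12 markers 2 were called in each direction, beside the same shares of all genes. Lower sums were not particular to these tissues. Heart markers summed to 103 to 122 in WT siblings and 90.1 to 98.1 in mutants, and leukocyte markers to 138 to 181 and 85.0 to 105. Neuron (only just), muscle and red cell sums were also lower in every mutant library, while those of glia and proliferating cells overlapped. The part of these markers in the soat2 difference was not tested, and fewer cells of a type cannot be told apart from less RNA per cell. The related soat1 gene, used more widely in the body, lay just under the filter at 0.669, 0.535 and 0.0469 FPKM in WT siblings and 0.835, 0.314 and 0.590 in mutants.

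The LDL receptor takes up cholesterol-carrying lipoproteins and is encoded by ldlra and ldlrb. The ldlrb gene had FPKM of 8.14, 7.01 and 2.71 in WT siblings and 4.28, 4.84 and 3.98 in mutants. WT sibling replicates 1 and 2 lay above all mutants and replicate 3 below them, so the log2 difference was -0.27 with a wide interval of -1.03 to 0.48. Without WT sibling replicate 3 the difference was -0.68 (SE 0.113, adjusted p = 0.00453), a call. Calls were common in that fit, with 1495 genes lower over the whole table against 733 with all libraries. The ldlra gene was 6.86-fold lower in mean level, at 0.716, 0.701 and 0.419 FPKM in WT siblings and 0.908, 0.982 and 0.790 in mutants. Every mutant library was higher, but the log2 difference of 0.24 was not called (adjusted p = 0.210). The sterol carrier gene stard4 had a log2 difference of -0.33 (interval -0.66 to 0.0065), with mutant replicate 2 within the WT sibling range.

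Ratios within libraries were compared for the related pairs ldlra and ldlrb, srebf1 and srebf2, insig2 and insig1, and soat1 and soat2. The ratio of ldlra to ldlrb was 0.0879, 0.10 and 0.154 in WT siblings and 0.212, 0.203 and 0.199 in mutants. It was higher in 3 of 3 mutant libraries, with means 1.79-fold apart, and the insig2 to insig1 ratio had means 1.75-fold apart. Both gave p = 0.1 in the exact permutation test in both directions on log2 ratios, the smallest that is possible, and an adjusted p of 0.25 over 5 pairs, 1 of which is not described. The srebf and soat ratios overlapped between the groups, with p of 0.3 for each. The separation of the ldlra to ldlrb ratios did not rest on WT sibling replicate 3, whose ratio was the nearest of the WT siblings to the mutants. How often ratios of gene pairs separate in this way over the whole table was not counted.

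**Figure D4:**
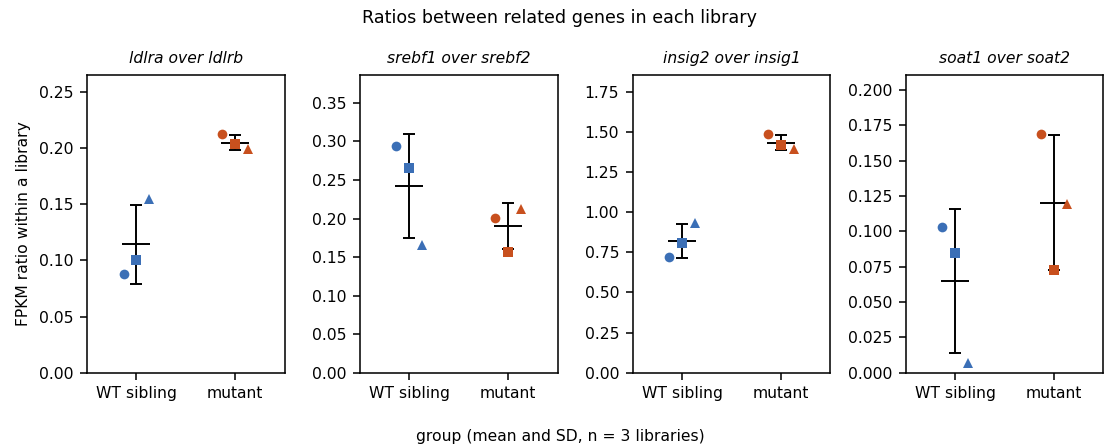
FPKM ratio of related genes within each library for 4 pairs, with a circle, square and triangle for replicates 1, 2 and 3 and black bars for the group mean and SD (n = 3 libraries each; axes start at 0). The insig2 to insig1 ratio is between 0.720 and 0.929 in WT siblings and 1.4 and 1.48 in mutants, and the ldlra to ldlrb ratio is separate as well, while the other pairs overlap.

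In mammals hmgcs1, insig1, idi1, sqle, ldlr and stard4 are among the genes that answer most to sterol supply through SREBP. Of the zebrafish genes of these names, hmgcs1 rose and the others listed did not pass the test, with log2 differences from -0.33 for stard4 to 0.44 for sqlea. The limma call of hmgcs1 was narrow (adjusted p = 0.0490). It was lost with a pseudocount of 0.1 (0.0542), as TPM (0.0523) and with the replicate block (0.0857). Quantile normalization and scaling by the median of ratios each gave 0.111. Of the fits leaving out a library, only that without WT sibling replicate 3 kept the call. The fatty acid synthesis genes fasn and acaca, mostly under SREBP-1 in mammals, had log2 differences of 0.038 (interval -0.27 to 0.34) and 0.098 (interval -0.26 to 0.46), with overlapping groups. Both turned below 0 after median-of-ratios scaling (-0.083 and -0.034).

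Further genes of these pathways were read from the same fit, in 5 lists with 121 genes tested. Of these, 2 were higher and 5 lower (8.23% and 3.98% of all genes). At an unadjusted p under 0.05 limma gave 21 higher (17.4%, against 26.0% of all genes) and 16 lower (13.2%, against 9.21%). Among 27 genes of the isoprenoid branches 0 rose and 2 fell. At an unadjusted p under 0.05 in limma 3 of them were higher (11.1%, against 26.0% of all genes) and 6 lower (22.2%, against 9.21%). The gene pggt1b, for the subunit of a geranylgeranyl transferase acting on small GTPases, went from 24.6, 23.0 and 20.4 FPKM in WT siblings to 15.7, 12.9 and 10.9 in mutants. In log2 it fell by 0.75 (SE 0.141, adjusted p = 0.0222). The gene dhdds, for a subunit of the enzyme that starts dolichol, fell by 0.54 (adjusted p = 0.0460).

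Among 8 other enzyme genes 0 rose and 1 fell, where 8.23% and 3.98% of all genes did. At an unadjusted p under 0.05 in limma 0 were higher and 4 lower (26.0% and 9.21% of all genes). The gene that fell was hsd17b12a, which in log2 fell by 0.64 (adjusted p = 0.0342); its mammalian counterpart acts mainly in fatty acid elongation. The gene faxdc2 had a log2 difference of -0.44 (adjusted p = 0.0582). Of 21 genes of SREBP processing and of degradation at the endoplasmic reticulum, 0 rose and 1 fell. At an unadjusted p under 0.05 in limma 2 were higher and 2 lower (9.52% of the list each, against 26.0% and 9.21% of all genes). The gene that fell was ubxn4, which fell by 0.72 (adjusted p = 0.0421), whose product recruits a segregase to that membrane. Next were faf2, at 0.33 (adjusted p = 0.0658), and rnf139, at -0.39 (adjusted p = 0.0763).

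Of 36 genes for sterol uptake, transport and disposal 0 were called in limma. At an unadjusted p under 0.05, 8 were higher (22.2%, against 26.0% of all genes) and 2 lower (5.56%, against 9.21%). The sterol-binding protein genes osbpl2a and osbpl2b had log2 differences of 1.38 (adjusted p = 0.0634) and 0.84 (adjusted p = 0.0717), and the lysosomal membrane gene scarb2a 0.83 (adjusted p = 0.0686). WT sibling replicate 3 was below the other WT siblings in these 3 genes, with log2 gaps of -1.51, -0.96 and -0.90. Of 29 fatty acid synthesis genes 2 rose and 1 fell (8.23% and 3.98% of all genes). The gene mlxip, for a glucose-sensing transcription factor, went from 1.2, 1.49 and 0.640 FPKM in WT siblings to 3.76, 3.57 and 3.91 in mutants (log2 difference 1.19, SE 0.172, adjusted p = 0.0115). The gene acacb, for the acetyl-CoA carboxylase that limits fatty acid entry into mitochondria, rose by 0.86 (adjusted p = 0.0390). It had 3.39, 3.72 and 1.84 FPKM in WT siblings and 6.10, 5.72 and 6.42 in mutants. WT sibling replicate 3 was again the lowest, with a log2 gap of -0.68 to the other WT siblings. The elongase gene elovl1a went from 8.26, 8.39 and 9.17 FPKM to 4.12, 5.14 and 5.07 and fell by 0.74 (SE 0.117, adjusted p = 0.0151).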

How the data were processed

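RNA-seq of 3 P2RY11 mutant and 3 WT sibling pools was analysed. The authors trimmed reads, aligned them with HISAT2 2.1.0 to the zebrafish genome, quantified transcripts with StringTie 1.3.3 and gave gene FPKM from Ballgown; the submitters' processing notes also name FastQC 0.11.7, cutadapt 1.17 and a human build, while gene IDs are those of zebrafish. The deposited FPKM are unlabelled in the header of 2 tables, in the same range. At most 15 genes lay above 0 and under 0.1 FPKM in both libraries of a pair, too few to recover depth.

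Genes averaging 0.5 FPKM or more across the libraries were compared on log2(FPKM + 1) with limma 3.58.1 (R 4.3.3; eBayes with trend, both directions, Benjamini-Hochberg over all 18432 genes, called at 0.05). Log2 differences understate changes of low genes. Library ratios were compared by exact permutation. Genes with full values were those called, the next 6 by p, the related pairs, and the highest and lowest, with fdft1 and scap added after their values were seen; of other lists, those called and the 3 smallest p. The genes and lists were chosen with earlier results of these data known. Alternatives were a pseudocount of 0.1, no filter or a filter at 1, TPM, median-of-ratios and quantile scaling, a replicate block, the study's criteria and leaving out each library. Gene order came from a RefSeq table of GRCz12tu, which matched all 33 genes. No sequences were used, and some genes of the lists are not reported here. Figures used matplotlib 3.10.9 in Python 3.11.15.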

Additional observations from a re-analysis of the deposited data

How the results depend on the processing

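The 5 genes called higher had a positive log2 difference in every alternative in which they were tested (0.23 to 1.2). With a filter at mean FPKM 1 pmvk was not tested. In these 5 genes every mutant value lay above every WT sibling value, so leaving out a library could not turn their direction. With a pseudocount of 0.1 the count of the group's genes called higher was 2, with a filter at mean FPKM 1 it was 3, after rescaling to TPM 3, with median-of-ratios scaling 0 and with quantile normalization 2. Genes of the group called lower were 1 with median-of-ratios scaling and 1 with quantile normalization, soat2 both times. Leaving out each library in turn, between 0 and 6 were higher and between 0 and 2 lower. Their median log2 difference of 0.20 was 0.29 with a pseudocount of 0.1, 0.10 with a filter at 1, 0.31 as TPM, 0.064 with median-of-ratios scaling, -0.0073 with quantile normalization and 0.14 to 0.25 with a library left out. Genes called higher over the whole table numbered 666 with median-of-ratios scaling and 980 with quantile normalization, where 1310 were lower. The share of calls that were higher went from 67.4% to 38.9% and 42.8%. Without a library 117 to 3712 genes were higher and 76 to 1495 lower. The cause was not tested.

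Same-numbered libraries had correlations of 0.016, 0.072 and 0.14 between their deviations, so the numbers were not taken as pairs, and mutant replicates 1 and 2 correlated best with other numbers. With the replicate block 672 genes were higher and 404 lower, and 3 of the group were higher (acat2, ggps1 and insig2).

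Median-of-ratios scaling with WT sibling replicate 3 left out, added after the values had been seen, gave 4 of the group higher (acat2, insig2, pmvk and sc5d) and 4 lower (ldlrb, soat2 and srebf1 among them), a median of 0.047 and 2569 genes lower overall. The log2 difference of srebf2 was then -0.19, of mvda -0.042, of acaca -0.15, of fasn -0.10, of scap -0.082 and of fdft1 -0.20.

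Genes that were not called changed direction as follows. After median-of-ratios scaling mvda was at -0.078, hsd17b7 -0.088, tm7sf2 -0.040, acaca -0.034, msmo1 -0.12, fasn -0.083 and ebp -0.023. After quantile normalization mvda was at -0.11, hsd17b7 -0.14, tm7sf2 -0.14, acaca -0.17, mvk -0.0073, msmo1 -0.25, fasn -0.22 and ebp -0.17. As TPM insig1 was at 0.035 and srebf1 at 0.021. With a library left out the ranges were -0.060 to 0.44 for srebf2, -0.057 to 0.23 for hsd17b7, -0.042 to 0.18 for acaca, -0.11 to 0.14 for msmo1, -0.028 to 0.12 for fasn, -0.40 to 0.13 for srebf1, -0.036 to 0.22 for ebp and -0.12 to 0.48 for fdft1. With 3 libraries per group the interval of a typical gene of the group reached 0.33 to either side on the log2 scale, so much smaller differences were not detectable.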
